A study of Homo sapiens with 6 samples.

Results

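The genes described here are 10 early response genes that encode transcription factors or small regulators of the early growth response (EGR), immediate early response (IER) and Krüppel-like factor (KLF) families, together with the serum response factor. They are EGR1, EGR2, EGR3, IER2, IER3, IER5, KLF4, KLF6, KLF10 and SRF, taken by name from a total of 23228 genes counted in each library. RNA-seq was done on 6 libraries of HEC-1-A, an established line of human endometrial adenocarcinoma grown in McCoy's 5A medium with 10% serum. Controls were 3 libraries of cells. The study's methods say that control cells received vehicle, although their labels name only the medium. The other 3 libraries came from cells given SMIP34, a small molecule that binds the coregulator protein PELP1, at 20 µM for 24 h. Nothing in the labels says that the replicates were separate cultures, so the p-values measure only the spread between these libraries, which may be technical. A single cell line at a single dose and time was sequenced, and in such bulk RNA a change in the number of cells that express a gene and a change in RNA per cell cannot be told apart.

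Early response genes are transcribed within minutes of a growth factor, serum or stress signal, without the need for new protein synthesis, and many of their mRNAs are short-lived. SRF is a transcription factor already present in the resting cell. It binds the CArG box, the core of the serum response element, with ternary complex factors such as ELK1 that are phosphorylated by the ERK kinases, or with actin-regulated MRTF cofactors. EGR proteins are zinc finger factors that bind GC-rich sites and are themselves bound by the corepressors NAB1 and NAB2. KLF proteins are zinc finger factors that bind GC boxes and CACCC elements, and several restrain the growth of epithelial cells.

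Promoter sequence is shown for the genes in which a motif of this circuit was found, since the CArG box links SRF to the EGR genes and to itself. RefSeq promoter windows (GRCh38.p14, 250 bases before to 50 after a transcription start) were found for 7 of the 10 genes, in 10 windows, as EGR2 has 3 annotated starts there and SRF has 2. IER3, EGR3 and KLF10 had no entry. Both strands were searched for the CArG box (CC, then 6 letters that are each A or T, then GG), for the EGR site (GCGGGGGCG or GCGTGGGCG), for the cAMP response element (TGACGTCA) and for the TATA box (TATAAA). The last 120 bases before the start are given below 5′ to 3′, with matches to the CArG box and the EGR site in capitals. They lie at chr5:138465359-138465478 on the plus strand for EGR1, at chr10:62816367-62816486 on the minus strand for start 3 of EGR2, at chr6:43171149-43171268 on the plus strand for start 1 of SRF, and at chr10:3785210-3785329 on the minus strand for KLF6.
EGR1: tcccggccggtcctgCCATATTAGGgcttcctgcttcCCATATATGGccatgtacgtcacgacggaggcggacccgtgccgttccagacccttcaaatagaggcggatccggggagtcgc
EGR2: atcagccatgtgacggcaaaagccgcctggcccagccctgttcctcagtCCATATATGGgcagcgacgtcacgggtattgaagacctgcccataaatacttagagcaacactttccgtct
SRF: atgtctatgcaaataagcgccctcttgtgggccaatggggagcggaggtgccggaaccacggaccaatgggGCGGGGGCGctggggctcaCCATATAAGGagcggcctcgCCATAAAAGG
KLF6: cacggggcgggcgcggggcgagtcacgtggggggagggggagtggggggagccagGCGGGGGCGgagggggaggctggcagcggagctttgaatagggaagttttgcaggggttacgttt

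A CArG box was present in 3 of the 10 windows, each of a different gene. EGR1 held CCATATTAGG from base -105 and CCATATATGG from base -83, counted from the transcription start. EGR2 held CCATATATGG from base -71 of start 3. SRF held CCATATAAGG from base -30 and CCATAAAAGG from base -10 of start 1. Of all 35116 promoter windows of this length, 1.29% held a CArG box. The EGR site GCGGGGGCG was found in 2 of the 10 windows, from base -65 in KLF6 and from base -49 in SRF, against 5.77% of all windows. SRF was thus the gene whose window held both motifs, and its EGR site did not overlap either CArG box. A TATAAA was found in SRF on the minus strand from base 15 after the start, against 11.5% of all windows. The cAMP response element was found in none of these 10 windows and in 1.85% of all windows. The windows of IER2, IER5 and KLF4 held none of the 4 motifs. These matches describe the letters of the reference genome, and no binding was measured.

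**Figure D1:**
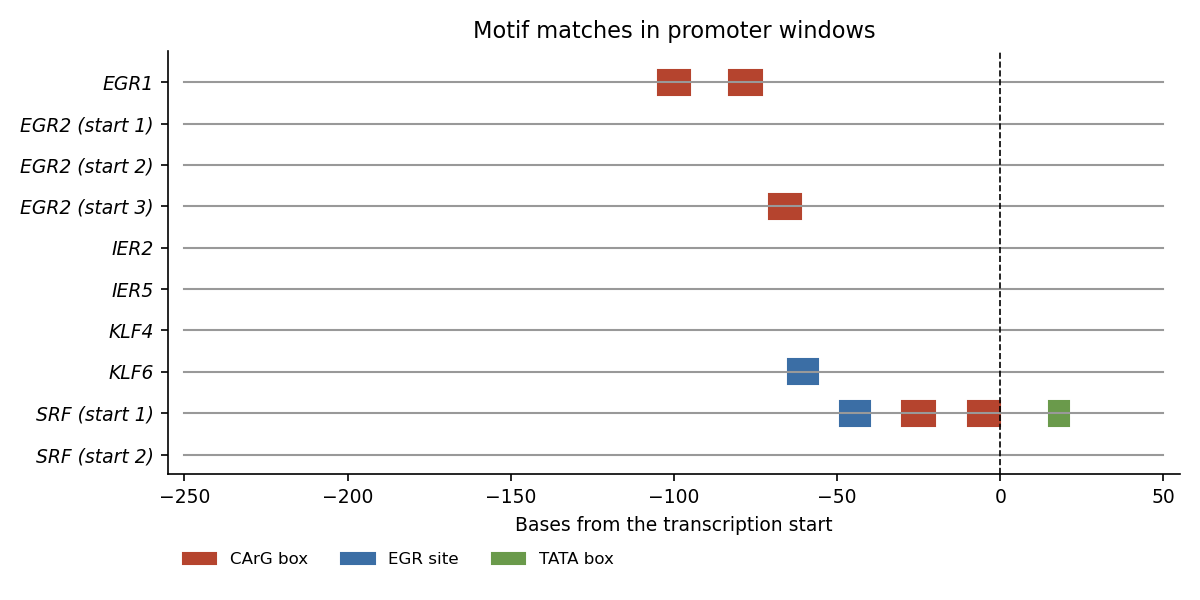
Motif matches in the 10 RefSeq promoter windows of 7 genes, drawn to scale along the bases from the transcription start (dashed line), with CArG boxes in red, EGR sites in blue and the TATA box in green. The CArG boxes of EGR1 lie from bases -105 and -83, that of EGR2 from base -71 of start 3, and those of SRF from bases -30 and -10 of start 1.

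The values are given as CPM, that is, the deposited estimated counts scaled to a common library size after TMM scaling. Total counts per library lay between 19562711 and 22014835. The transcript of the drug's target itself, PELP1 (chr17:4574679-4607632 of hg19), was at 139 ± 6.50 CPM in controls and 156 ± 4.42 CPM with SMIP34 (mean ± SD, n = 3 each). The difference was 0.16 on the log2 scale (standard error 0.035, edgeR adjusted p = 0.000746). The study reported less PELP1 protein after SMIP34 by Western blotting, and transcript levels do not give protein levels. Epithelial markers (EPCAM, CDH1, KRT7, KRT8, KRT18, KRT19 and PAX8) summed to between 4910 and 5080 CPM in controls and between 4710 and 4800 CPM with SMIP34. Of these 7 genes 3 were called lower, namely KRT8, KRT19 and PAX8, against 17.2% of all genes tested. With length and GC offsets 2 of the 7 were called higher and 2 lower. Fibroblast markers (6 genes) summed to between 3.63 and 4.47 CPM in controls and between 4.69 and 5.18 CPM with SMIP34, with LUM at 0 in every library. Leukocyte markers (6 genes, CD3E at 0 in every library) summed to at most 2.23 CPM and endothelial markers (4 genes) to at most 0.876 CPM in any library. The part of these marker levels in the results was not tested.

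Most of these genes were slightly higher in SMIP34-treated cells. Of the 9 genes with enough counts to test, all 9 had a log2 fold change above 0 and 5 passed an adjusted p of 0.05 and rose, namely KLF10, KLF4, KLF6, IER2 and EGR1. The same threshold called 17.4% of all 13408 genes tested higher. None of the 9 was called lower, while 17.2% of all genes tested were called lower. With a further limit of 0.5 on the log2 fold change, 1 gene remained, KLF10, against 1.44% of all genes tested. The 3 SMIP34 libraries all lay above the 3 control libraries in 8 of the 9 genes tested, against 22.6% of all genes tested, and the exception was IER5. The median log2 fold change of the 9 was 0.24, beside -0.0022 over all genes tested and 0.20 over the genes called higher. These counts and the median are descriptions, since EGR2 passed the filter on low counts only through its SMIP34 libraries and EGR3 did not pass it.

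**Figure D2:**
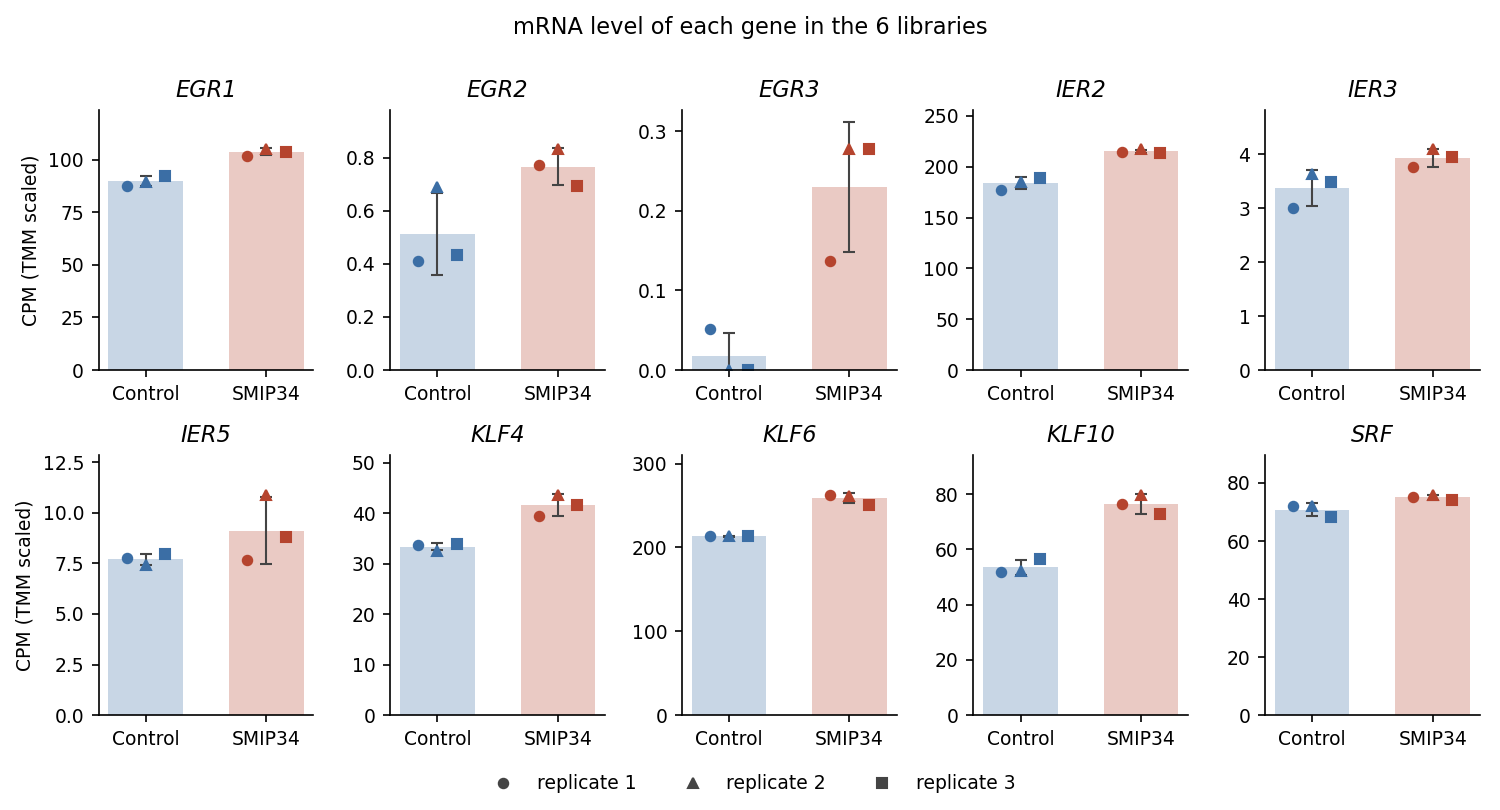
CPM (TMM scaled, linear axis from 0) of each of the 10 genes in the 3 control libraries (blue) and the 3 SMIP34 libraries (red), with a point for each library, bars at the mean and error bars of 1 SD. In 9 of the 10 panels the SMIP34 points all lie above the control points, as they do for 22.6% of all genes tested. In EGR2 they do so narrowly (0.693 against 0.69 CPM), and EGR3, with 0 to 6 counts, was not tested. The exception is IER5, where SMIP34 replicate 1 lies at 7.66 CPM among controls of 7.4 to 7.94.

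EGR1 (chr5:137801181-137805004 of hg19, 2 exon blocks), the best known early growth response factor, was well measured, with between 1704.25 and 2279.5 counts per library. Its level was 87.8, 89.6 and 92.3 CPM in the controls and 102, 105 and 104 CPM with SMIP34. The groups did not overlap, and the highest control stayed below the lowest treated library. The means were 89.9 ± 2.27 and 104 ± 1.78 CPM, a 1.16-fold rise or 0.21 on the log2 scale (standard error 0.035, 95% interval 0.14 to 0.28, adjusted p = 4.62e-05).

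EGR2 (chr10:64571756-64578927), a related zinc finger factor known from nerve myelination and lymphocytes, was close to the lower limit of detection. It gave 8, 15 and 9 counts in the controls and 17, 18 and 15 counts with SMIP34, which is 0.412, 0.690 and 0.433 CPM against 0.775, 0.832 and 0.693 CPM. Control replicate 2 all but reached the lowest treated library, and the other controls were lower. The log2 fold change was 0.56 (standard error 0.37, 95% interval -0.19 to 1.31, adjusted p = 0.247), so the interval held both no change and a change larger than that of any other gene of the group that was tested. Only 1 of the 3 control libraries reached the filter's cutoff of 0.47 CPM, against all 3 SMIP34 libraries. Leaving out each library in turn gave 0.44 to 0.85 on the log2 scale, the highest without control replicate 2, and none of these passed.

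EGR3 (chr8:22545174-22550815), a further factor of this family, gave 1, 0 and 0 counts in the controls and 3, 6 and 6 counts with SMIP34. These are 0.0515, 0 and 0 CPM against 0.137, 0.277 and 0.277 CPM, and 3 counts correspond to between 0.14 and 0.15 CPM. Every treated library had more counts than every control, at a depth where a few reads set the value. The sums of 1 and 15 counts give a ratio of 14.2 per unit of depth, with an exact 95% interval of 2.19 to 600 that covers counting error only. An exact two-sided permutation test over the libraries gave p = 0.1, the smallest that 3 against 3 can give. Without the filter, edgeR placed it 3.42 higher on the log2 scale (standard error 1.14, adjusted p = 0.025), and DESeq2 gave an unadjusted p = 0.0164 with no adjusted value.

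IER2 (chr19:13261282-13265718) encodes a small nuclear protein that is induced by serum. It was at 177, 185 and 189 CPM in the controls and at 214, 217 and 213 CPM with SMIP34. The treated libraries lay close together, with a coefficient of variation of 0.839%, and well above the controls. The means were 184 ± 5.91 and 215 ± 1.80 CPM, a 1.17-fold rise or 0.23 on the log2 scale (standard error 0.030, 95% interval 0.16 to 0.29, adjusted p = 1.83e-06).

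IER3 (chr6:30710976-30712327), which encodes a stress-induced regulator of cell survival, was low and its count is uncertain. The annotation used for counting places it on 6 chromosome copies, the primary chromosome 6 and its alternative haplotypes, and 5 of the 6 libraries had a fractional count. Its level was 3.00, 3.63 and 3.48 CPM in the controls and 3.76, 4.09 and 3.95 CPM with SMIP34. The groups did not overlap, but the gap between them was small beside the spread of the controls. The log2 fold change was 0.22 (standard error 0.16, 95% interval -0.10 to 0.54, adjusted p = 0.295). IER3 and KLF4 are among the genes that the study displayed after choosing them on these libraries, so their direction here is not independent of that choice.

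IER5 (chr1:181057638-181059979, a gene of 1 exon), which encodes a regulator of the heat shock factor HSF1, was a gene whose value depended on single libraries. It was at 7.78, 7.4 and 7.94 CPM in the controls and at 7.66, 10.9 and 8.78 CPM with SMIP34. SMIP34 replicate 1 lay within the control range and replicate 2 lay far above it, so that the coefficient of variation was 18.1% with SMIP34 against 3.56% in controls. The log2 fold change was 0.24 (standard error 0.12, 95% interval -0.00027 to 0.48, adjusted p = 0.115). It was 0.35 without SMIP34 replicate 1, with an adjusted p = 0.0272, and 0.093 without SMIP34 replicate 2.

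KLF4 (chr9:110247133-110252047), a factor of epithelial differentiation and of reprogramming to pluripotency, was at 33.8, 32.6 and 33.9 CPM in the controls. It was at 39.4, 43.7 and 41.6 CPM with SMIP34. All treated libraries lay above all controls, with a wider spread among the treated. The means were 33.4 ± 0.752 and 41.6 ± 2.16 CPM, a 1.24-fold rise or 0.32 on the log2 scale (standard error 0.052, 95% interval 0.21 to 0.42, adjusted p = 3.35e-05).

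KLF6 (chr10:3818188-3827473), a broadly expressed factor described as a growth suppressor in several carcinomas, had the highest counts of the group, between 4134 and 5768 per library. Its level was 213, 213 and 214 CPM in the controls and 263, 261 and 251 CPM with SMIP34. The controls were almost identical, with a coefficient of variation of 0.432%, and the groups were well separated. The means were 213 ± 0.921 and 259 ± 6.29 CPM, a 1.21-fold rise or 0.28 on the log2 scale (standard error 0.029, 95% interval 0.22 to 0.34, adjusted p = 2.78e-08).

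KLF10 (chr8:103661005-103667983), first described as an early gene induced by TGF-β, changed most among the genes that passed the test. Its level was 51.7, 52.3 and 56.5 CPM in the controls and 76.5, 79.8 and 72.7 CPM with SMIP34. The lowest treated library was far above the highest control. The means were 53.5 ± 2.64 and 76.3 ± 3.57 CPM, a 1.43-fold rise or 0.51 on the log2 scale (standard error 0.045, 95% interval 0.42 to 0.60, adjusted p = 1.34e-09). Ordered by log2 fold change from the highest, it stood at place 289 of the 13408 genes tested. Its place past the limit of 0.5 is not firm, since the interval holds the limit and the value was between 0.47 and 0.56 over 19 fits.

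SRF (chr6:43138920-43149244, 7 exon blocks), the factor that acts on several of these genes, had the smallest log2 fold change of the 9 genes tested. It was at 72.0, 72.0 and 68.3 CPM in the controls and at 75.1, 76.0 and 74.2 CPM with SMIP34. The groups did not overlap, but the controls spread almost as far as the gap between the means. The means were 70.8 ± 2.13 and 75.1 ± 0.889 CPM, 0.086 apart on the log2 scale (standard error 0.039, 95% interval 0.0066 to 0.17, unadjusted p = 0.0348, adjusted p = 0.0864). With offsets for exon GC content, an alternative chosen after seeing the data, it was 0.13 with an adjusted p = 0.00777, and with library size as the sole scaling it was 0.10 with an adjusted p = 0.0366. With length offsets it was 0.051 with an adjusted p = 0.315, the lowest of a range of 0.051 to 0.13 over 19 fits, of which 3 passed.

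**Figure D3:**
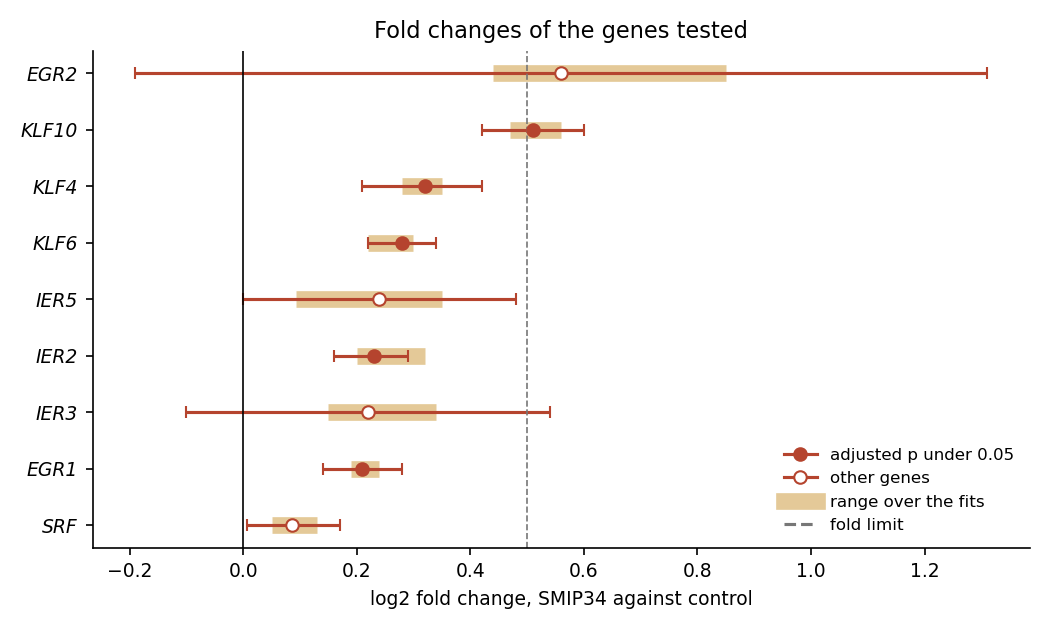
Log2 fold change of SMIP34 against control for the 9 genes tested, with 95% intervals, filled where the adjusted p is under 0.05; the wide bands span the lowest and highest value over the fits and the dashed line marks the limit of 0.5. The 5 filled genes lie between 0.21 (EGR1) and 0.51 (KLF10), and the intervals of EGR2, IER3 and, narrowly, IER5 hold 0.

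Levels were compared between genes as CPM per kilobase of exon. In controls IER2 was highest at 89.7 ± 2.89, followed by KLF6 at 45.8 ± 0.198 and EGR1 at 28.7 ± 0.724. SRF at 16.4 ± 0.494 and KLF10 at 15.6 ± 0.772 came next, and their libraries overlapped, so that these neighbours did not differ beyond their spread. KLF4 followed at 11.4 ± 0.256, then IER5 at 3.29 ± 0.117 and IER3 at 2.72 ± 0.268. The place of IER3 is uncertain in both groups, since the annotation puts it on 6 chromosome copies. EGR2 and EGR3 were lowest, at 0.163 ± 0.0491 and 0.00381 ± 0.0066. With SMIP34 the order was kept except that KLF10, at 22.3 ± 1.04, stood above SRF, at 17.4 ± 0.206, with no overlap between their libraries. In the treated cells IER5 and IER3, at 3.89 ± 0.706 and 3.17 ± 0.136, overlapped. The genes of each family therefore spanned a wide range, with a highly expressed member (EGR1, IER2, KLF6) and members near or at the limit of detection in the EGR family.

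**Figure D4:**
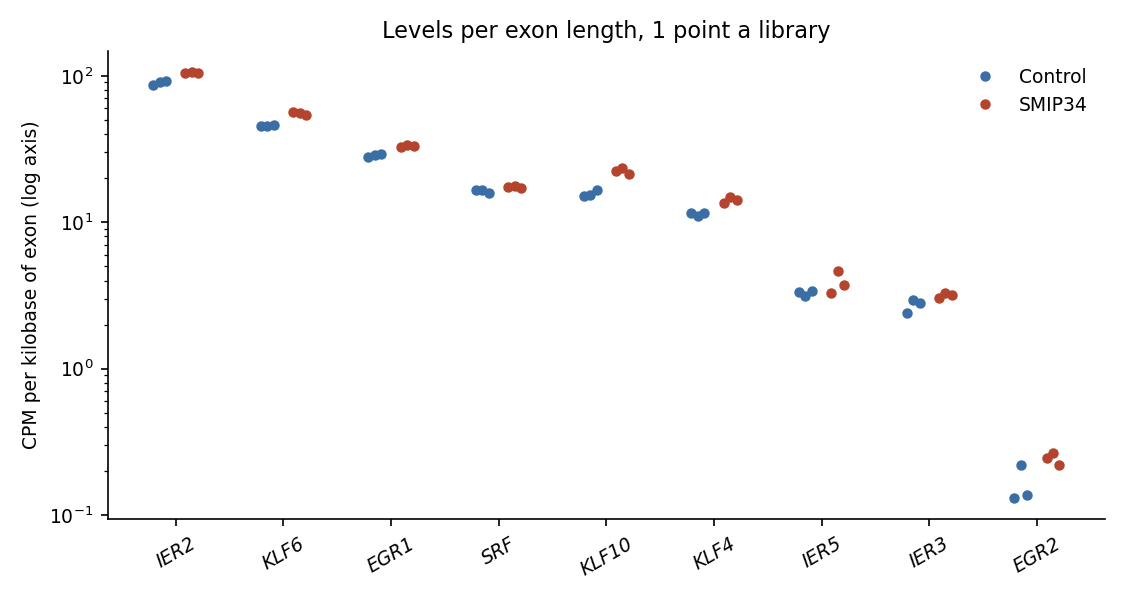
CPM per kilobase of exon (log axis) of 9 genes in the 3 control (blue) and 3 SMIP34 libraries (red), ordered by the control mean, with a point for each library; EGR3 is left out because 2 control libraries hold 0 counts. IER2 lies highest, at 89.7 in controls and 105 with SMIP34, and KLF10 moves from the level of SRF to above it.

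The 10 genes share a compact structure that was not used to choose them. Their spans of 1352 to 10325 bases were all below the median of 27006 bases over genes tested, and 25.3% of genes tested have a span no longer than the longest of them. All 10 had fewer exon blocks than the median of 9, and 8 of the 10 had an exon GC content above the median of 49.5%, the exceptions being KLF6 at 45.9% and KLF10 at 44.7%. The AU-rich pentamer ATTTA, a motif of unstable mRNAs, was found in the 3′ untranslated region of 9 of the 10 genes, IER2 being the exception, against 72.9% of the tested genes that have an annotated one. The nonamer TTATTTATT was found in IER5 and SRF, against 9.45%. By pentamers per kilobase 5 of the 10 genes were above the median of 1.68, with IER3 highest at 8.11.

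The genes whose pattern over the 6 libraries was nearest to the most highly expressed gene of each family were named by a fixed rule, the root mean square difference of log2 CPM after each gene was centred on its control mean. Among 12604 genes, CGN was nearest to EGR1 with a difference of 0.0083, followed by PCM1 and MAML1 at 0.014 each. MED14 at 0.014, RAB11FIP5 at 0.016 and NFKB1 at 0.017 were nearest to IER2. UBE2O at 0.0090, ANLN at 0.012 and AHCTF1 at 0.016 were nearest to KLF6. These 9 genes had log2 fold changes between 0.21 and 0.30. The measure includes the SMIP34 libraries, so a fold change similar to that of the family's gene follows from the rule and is no separate result.

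Of the other EGR, IER and KLF genes, 12 of 16 were tested, 3 rose, none fell and the median log2 fold change was 0.022. With length offsets 2 were called higher and 1 lower, and with length and GC offsets 3 higher and 2 lower. KLF9, a glucocorticoid-induced factor, rose by 0.51 on the log2 scale (standard error 0.15, adjusted p = 0.00821), and KLF5, a factor of proliferating epithelium, by 0.17 (standard error 0.032, adjusted p = 0.000113). KLF7 at -0.96 (adjusted p = 0.0785) and KLF8 at -0.58 (adjusted p = 0.0777) were the lowest and did not pass, and EGR4 was at 0 in every library. KLF7 gave 13, 18 and 10 counts in controls and 6, 7 and 9 counts with SMIP34, and passed the filter only through its controls. A rise was thus seen in 5 of the 9 described genes tested and in 3 of these 12 relatives, a contrast that was not tested. Over all genes tested 17.4% were called higher and 17.2% lower. These shares also stand beside the counts of each list that follows, none of which was tested as a set. The EGR corepressors rose slightly. NAB1 was at 62.5 ± 2.38 and 68.4 ± 1.79 CPM, which is 0.13 on the log2 scale (standard error 0.042, adjusted p = 0.0141). NAB2 was at 55.1 ± 1.56 and 61.3 ± 2.22 CPM, with 0.15 (standard error 0.043, adjusted p = 0.00677), and 1 of the 2 passed with DESeq2 and with the length or GC offsets.

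Of the cofactors that SRF binds, 5 of 6 were tested, 2 rose and none fell. ELK3, a ternary complex factor, rose by 0.39 on the log2 scale (standard error 0.062, adjusted p = 1.97e-05), and MKL1, the actin-regulated cofactor MRTF-A, by 0.22 (standard error 0.056, adjusted p = 0.00347). ELK1 at -0.094, ELK4 at 0.13 and MKL2 at 0.083 did not pass, and MYOCD was not tested. The median of 0.13 turned to -0.014 with length offsets and -0.051 with length and GC offsets. The cytoskeletal genes that MRTF and SRF induce moved in both directions, with 2 of 15 tested higher, 4 lower and a median of -0.10. With length and GC offsets 3 were higher and 2 lower, with a median of -0.024. CYR61, a secreted matrix protein and an early gene, rose by 0.31 (adjusted p = 3.77e-08), and CNN2, an actin-binding calponin, had a log2 fold change of 0.078 (adjusted p = 0.0314). TAGLN, the smooth muscle protein transgelin, fell by 0.63 on the log2 scale (adjusted p = 0.000137), while MYL9 at -0.54 did not pass (adjusted p = 0.352). Textbook EGR1 target genes rose in 4 of 9 cases (2 with length offsets) and fell in none, with a median of 0.12. PDGFA, a growth factor chain, rose by 0.54 (standard error 0.13, adjusted p = 0.00151), whereas IGF2 at 0.61 (adjusted p = 0.240), TGFB1 at -0.032 and PDGFB at -0.022 did not pass. Of 12 genes of the RAS, RAF, MEK, ERK and RSK cascade, 3 rose and 1 fell, with a median of 0.022, whereas with length and GC offsets 1 was higher and 2 were lower. RPS6KA3, the kinase RSK2, was the highest at 0.24, and MAPK3, which encodes ERK1, fell by 0.22 on the log2 scale (adjusted p = 3.69e-05), while MAP2K2 was at -0.075. Transcript levels do not give the phosphorylation of these kinases.

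The AP-1 family, the other classical group of early transcription factors, had larger values in the same libraries, with 6 of 8 genes higher, 5 of them past the limit of 0.5, and a median of 0.84 (adjusted p of at most 8.39e-09 for each of the 6). FOSB went from 1.90 ± 0.268 to 16.3 ± 1.44 CPM (log2 fold change 3.09), and ATF3 from 7.82 ± 0.814 to 25 ± 1.30 CPM (1.68). JUN went from 36.9 ± 2.36 to 95.6 ± 1.34 CPM (1.37), and FOS from 6.30 ± 1.25 to 14.1 ± 0.990 CPM (1.15). The study singled out JUN and ATF3 on these libraries for RT-qPCR, so their direction here is not independent of that choice. The same holds for some genes of the further list below. FOSL1 at 0.52 and JUNB at 0.44 rose by amounts close to that of KLF10, while JUND at 0.0089 and FOSL2 at -0.046 did not pass. Beside these values EGR1, which is often induced together with FOS, rose by 0.21 on the log2 scale. A further list of 15 immediate early genes had 12 of 14 tested higher, none lower, 5 past the limit and a median of 0.26. The nuclear receptors NR4A3 at 2.39 and NR4A2 at 1.01 were its highest, and RHOB at 0.073 and CTGF at -0.15 did not pass. NR4A3 gave 5, 2 and 3 counts in controls and 16, 19 and 22 counts with SMIP34. It passed the filter on low counts only through its SMIP34 libraries, and it is among the 12 called higher and the 5 past the limit. CYR61 and CTGF are also in the list of cytoskeletal SRF targets, and NAB2 is also among the EGR1 targets. All comparisons share the 6 libraries, and the lists were written with results of these data known.

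**Figure D5:**
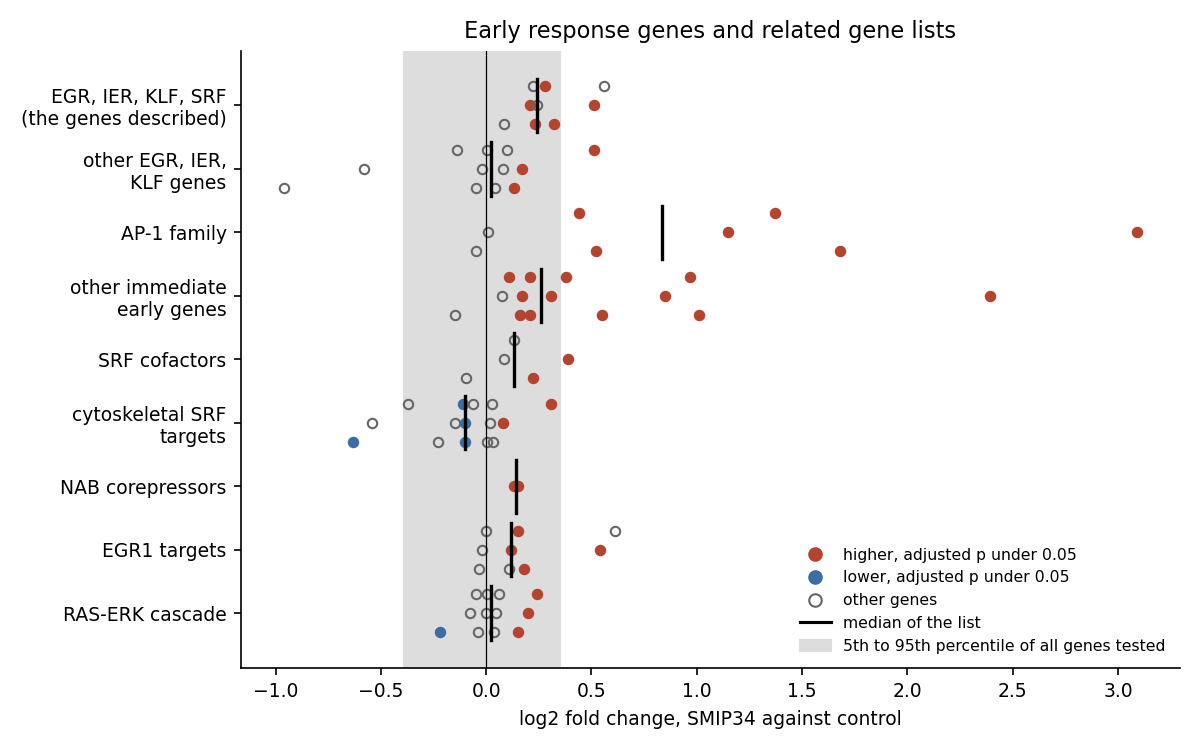
Log2 fold change of SMIP34 against control for each gene tested in the group and in 8 related lists, red where higher and blue where lower at an adjusted p under 0.05, open otherwise, with a black bar at the list's median and a grey band from the 5th to the 95th percentile of all genes tested (-0.39 to 0.35). KLF10 and EGR2 lie above the band, while 5 of the 8 AP-1 genes are past 0.5.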

How the data were processed

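RNA was measured in 6 libraries of HEC-1-A cells, 3 control and 3 SMIP34-treated, sequenced as 50-base single reads; groups were taken from the labels. The values are estimated counts per gene that the authors deposited without normalization. Per the file headers, they were made with featureCounts 1.5.0-p1 on the UCSC hg19 annotation, by strand, at a mapping quality of at least 2, with reads at several places or on several genes divided into fractions. The submitters' processing notes name HISAT2 for mapping, whereas the study's methods name tophat2 and HTSeq, and the labels name library kits of 2 makers. Between 6.31% and 7.43% of values were not whole, and counts were rounded for the tests. Divided reads make the counts of multi-copy genes uncertain, and of the 10 genes only IER3 was annotated on several chromosome copies. Fractional counts were present for 5 of the 10, namely IER3 in 5 libraries, EGR1 in 4 and IER2, KLF6 and KLF10 in 1 each.

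Genes with few counts were removed with filterByExpr, which left 13408, and libraries were scaled by TMM. The test between groups was quasi-likelihood (edgeR 4.0.16, legacy method off, R 4.3.3), and p-values were adjusted by Benjamini-Hochberg over the 13408 genes. A gene was called at an adjusted p-value under 0.05, and counted again with an absolute log2 fold change over 0.5. P-values not named otherwise come from this fit. CPM use the unrounded counts. Exon length and GC content came from the annotation in the files and the GRCh37 sequence; IER3 was given the length of its chromosome 6 copy. Untranslated regions came from GENCODE 44 mapped to GRCh37. Alternatives were DESeq2 1.42.0, limma voom (limma 3.58.1), other scalings and filters, offsets for length and GC content, a replicate block and leaving out each library. Replicate libraries differed by more than sampling noise, with a chi-square per gene of 1.89 to 3.26 within groups and 8.75 to 13.2 between them.

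The 10 genes and the gene lists were chosen with earlier results of these data known, so no list was tested. The genes that could be named were the 10, PELP1, all genes of lists of up to 8, the extremes of longer lists and the nearest patterns. Not all of them are given a value here, and cell type markers are given as sums. Depth limits precision for the genes with few counts, which are EGR2 and EGR3 of the 10 genes and, in the other lists, NR4A3, KLF7, MYL9 and IGF2 among others. Count intervals cover counting error only.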

Additional observations from a re-analysis of the deposited data

How the results depend on the processing

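Over 18 alternatives beside the reported fit, no log2 fold change of the group changed sign. EGR1, IER2, KLF4, KLF6 and KLF10 passed the adjusted p-value in all 19 fits, with log2 fold changes of 0.19 to 0.24, 0.20 to 0.32, 0.28 to 0.35, 0.22 to 0.30 and 0.47 to 0.56. The number of genes of the group called higher was 5 in the reported fit and 5 to 7 over the alternatives; the sixth and seventh were SRF (GC offsets, library size only, and length with GC offsets), IER5 (length with GC offsets, log2 fold change 0.32, adjusted p = 0.0378, and without SMIP34 replicate 1) or EGR3 (no filter). The number past the limit of 0.5 was 1, and it moved to 0 with upper quartile scaling, length offsets, GC offsets, length and GC offsets and a limit of 1, and to 2 with no filter on low counts, where EGR3 was added. Leaving out each library gave 0 to 1, with 0 without control replicate 1, control replicate 2 or SMIP34 replicate 2. The value of KLF10 near 0.5 is what moves in these counts. Same-numbered libraries did not deviate together (correlations of -0.028, 0.033 and -0.011). No pairing was thus visible in the values, which does not tell how the libraries were prepared. With a replicate block 5 genes were called higher and 1 passed the limit. Of the values for related lists, 138 stayed within the spread or 1.5 times the reported count and 27 moved. The GC offsets, alone and with length, were chosen after seeing the data. EGR2 and EGR3 are limited by depth, at 8 to 18 and 0 to 6 counts per library.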
